A study of Homo sapiens with 6 samples.

Results

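The human mitochondrial genome contributed 37 of the 62754 gene rows that each of the 6 count tables held, and all 37 were taken by their symbols, with no regard to their values. They comprised 13 mRNA, 2 rRNA and 22 tRNA rows. Reads had been counted in LX-2, a wild-type line of human hepatic stellate cells, the fat-storing cells of the liver that turn into collagen-making myofibroblasts after injury. Treatment lasted 24 h. The extract, called FEBJ in the labels, was made from the fruit of Brucea javanica and is a mixture; cynaroside is a single compound, luteolin carrying a glucose; DMSO served as control. Total RNA of 2 libraries was counted per group, no dose was given, and separate cultures were not stated. A p-value here thus sets a change only against the spread between these libraries, which may be technical. That spread was estimated for each row in part from the other rows.

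The mitochondrial genome is a small circle that is copied into RNA from both of its strands. Each strand gives a long RNA that is cut, mostly at the tRNAs lying between the other genes, into rRNAs, mRNAs and tRNAs. The mRNAs encode membrane subunits of complexes I, III and IV of the respiratory chain and of the ATP synthase, complex V, and the nuclear genome encodes their other subunits. The rRNAs build the ribosome that translates these mRNAs inside the organelle. MT-ND6 is encoded on the opposite strand from the other mRNAs.

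In GENCODE release 29, 28 of the 37 rows lay on the strand of MT-CO1: 12 mRNA rows, both rRNA rows and 14 tRNA rows. The other 9 lay on the strand of MT-ND6, and were MT-ND6 and 8 tRNA rows. Neither the library kit nor the strand setting of the counting was stated, so a row on one strand may hold reads of the transcript opposite to it. For that reason the strand is named beside each result below. The changes given are changes of rows. They were not shown to be changes of the RNA that a row is named for.

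The 22 tRNA rows split by strand before any comparison was made. On the strand of MT-CO1, 10 of the 14 tRNA rows held 0 counts in all 6 libraries, and the highest count in the remaining 4 was 15, for MT-TT. On the strand of MT-ND6, 6 of the 8 passed the filter on low counts and were tested. The letter after MT-T in a tRNA gene's symbol, such as Q in MT-TQ, stands for its amino acid. The 4 tRNA rows below were called in at least 1 comparison with DMSO, and their genes are shown 5′ to 3′ on the strand of MT-ND6, as the GENCODE transcripts on GRCh38 give them, with the anticodon in capitals. They are tRNAs for serine, tyrosine, proline and glutamine, 66 to 72 bases long.

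MT-TS1: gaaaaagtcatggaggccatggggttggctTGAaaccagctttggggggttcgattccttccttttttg

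MT-TY: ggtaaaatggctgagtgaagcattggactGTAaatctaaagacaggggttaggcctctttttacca

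MT-TP: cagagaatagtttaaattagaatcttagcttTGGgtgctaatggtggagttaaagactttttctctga

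MT-TQ: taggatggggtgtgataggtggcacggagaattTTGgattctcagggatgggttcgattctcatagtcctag

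Their positions bear on the values that follow. MT-TS1 lies directly after MT-CO1, MT-TY directly before it, and MT-ND6 directly after MT-ND5, each on the opposite strand from that neighbour. The messages of MT-CO1 and MT-ND5 are known to run past their reading frames, opposite to MT-TS1 and MT-ND6. The part of such opposite reads in any row was not tested.

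In all, 21 of the 37 rows were tested. These were the 13 mRNA rows, both rRNA rows and 6 tRNA rows, all of the last on the strand of MT-ND6. Of the 16 rows that did not pass, 10 were the tRNA rows at 0, and 6 were tRNA rows with few counts. Among these 6, MT-TA held 3 and 4 counts in DMSO, 3 and 11 under FEBJ, and 0 and 12 under cynaroside. MT-TC held 4 and 7, 4 and 13, and 0 and 12 in the same order. A count of 3, the limit that 0 counts allow, was worth 0.729 to 2.06 CPM (counts over the scaled library size, times 1e6) over the 6 libraries.

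Depth and cell identity were as follows. Gene rows held 1599000 to 4709317 counts per library, 5.48 to 6.12% of all counts in a table. Of 14 stellate markers, 6 were at 0 in all libraries, including COL1A2, PDGFRA, DES and LRAT. The summed level of the 14 was 763 to 766 CPM in DMSO, 49.9 to 58.1 under FEBJ and 123 to 156 under cynaroside, and its part in the mitochondrial results was not tested. Summed hepatocyte markers (6, of which 2 were at 0) reached 0.707 CPM in DMSO, 13.1 under FEBJ and 2.02 under cynaroside, and summed macrophage markers (5, with 1 at 0) 3.89, 12.2 and 6.86. Endothelial markers (5, with 3 at 0) summed to 125 to 177 CPM, and epithelial markers (5, with 2 at 0) to 1610 to 1620 in DMSO, 1520 to 1540 under FEBJ and 663 to 674 under cynaroside. Few genes made up most of these sums. In DMSO 1, KRT8 held 4234 counts against 316 for KRT18, and STAB1 350 against 3 for STAB2. Of the stellate markers there, VIM held 1075 and COL1A1 783, against 210 for SPARC. In FEBJ 1, SERPINA1 held 27 counts of the hepatocyte markers, against 3 for APOA1 and 3 for TF.

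The mitochondrial share of the counts went in opposite directions after the treatments. The 37 rows held 1.55 and 1.57% of the gene-row counts in the DMSO libraries. They held 0.651 and 0.658% under FEBJ and 2.31 and 2.34% under cynaroside. The group means were 1.56 ± 0.0112%, 0.655 ± 0.00504% and 2.33 ± 0.0215% (SD, n = 2). No group overlapped another, and the widest 95% Wilson interval of a library spanned 0.0466 percentage points, counting error only. With 2 libraries against 2, an exact permutation test of a single share cannot reach the threshold of 0.05, so the shares are given without a test. In bulk RNA, fewer cells and less RNA per cell cannot be told apart.

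The larger share under cynaroside lay in the rows of the MT-ND6 strand. The 9 rows of that strand summed to 7804 and 8006 CPM in DMSO, to 4808 and 4765 CPM under FEBJ, and to 19703 and 21615 CPM under cynaroside. The 12 mRNA rows of the other strand summed to 5856 and 5913 CPM in DMSO, 1514 and 1607 CPM under FEBJ, and 5630 and 6158 CPM under cynaroside, where the groups of DMSO and cynaroside overlap. FEBJ libraries were thus lowest on both strands, and cynaroside libraries were above DMSO on the strand of MT-ND6 while their sum for the 12 mRNA rows enclosed that of DMSO.

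**Figure D1:**
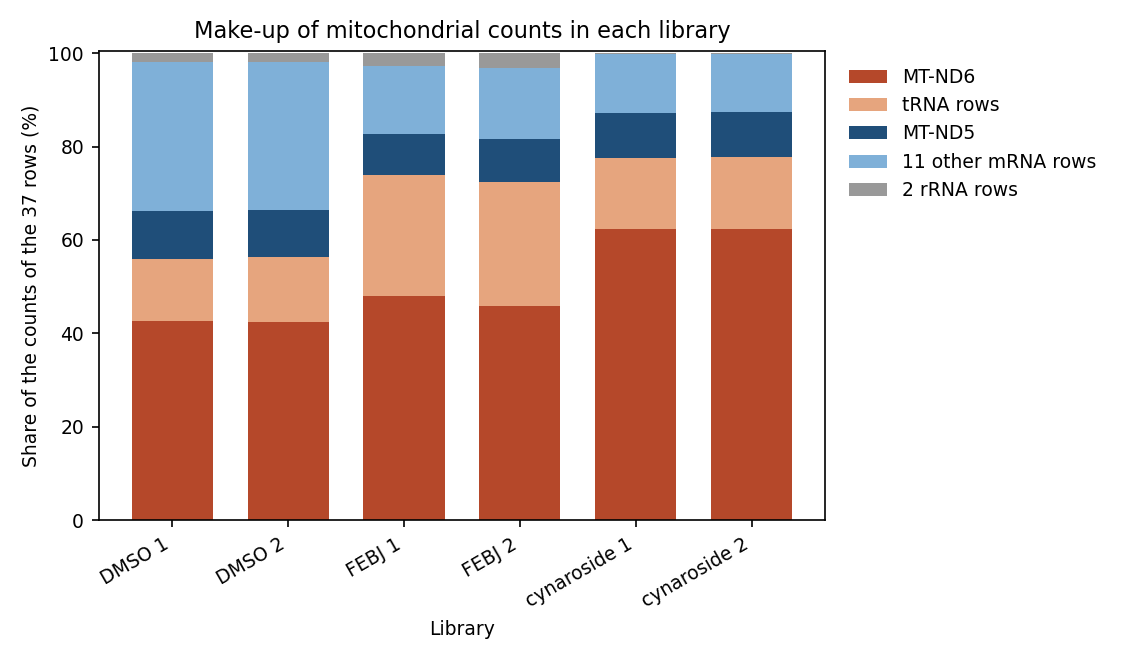
Share of the counts of the 37 mitochondrial rows, in percent, held by each kind of row in each of the 6 libraries, as stacked bars. MT-ND6 held 42.5% of the mitochondrial counts in DMSO, 46.9% under FEBJ and 62.3% under cynaroside on average, and the 11 mRNA rows other than MT-ND5 and MT-ND6 held 31.7%, 14.9% and 12.5%.

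MT-ND6 (ENSG00000198695), a membrane subunit of complex I, was the most abundant mitochondrial row in each library. Its share of the 13 mRNA rows was 50.3 and 50.4% in DMSO, 67.3 and 65.3% under FEBJ, and 73.7 and 73.8% under cynaroside. The rows of its strand together held 56.0 and 56.4% of the 37 rows in DMSO, 74.0 and 72.4% under FEBJ, and 77.6 and 77.7% under cynaroside. The widest Wilson intervals in a library spanned at most 1.7 and 1.35 percentage points for these shares. Both shares were higher in all 4 treated libraries than in the DMSO libraries, and higher under cynaroside than under FEBJ.

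Counted the other way, the 12 mRNA rows held 0.987 and 0.982 counts for each count of MT-ND6 in DMSO. They held 0.486 and 0.532 under FEBJ, and 0.356 and 0.355 under cynaroside. A like shift was seen in nuclear genes that lie opposite to another row. Each pair was a protein-coding nuclear row and a non-coding row, the only row sharing at least 50 exon bases with it on the opposite strand. A pair held at least 1000 counts together. The non-coding row, but not the coding row, had to hold counts in each library, a rule that can lower the ratio. Over 592 such pairs, the coding gene's own row came to 5.60 and 5.52% of the non-coding row opposite in DMSO, by the median over pairs. It held 2.96 and 2.89% under FEBJ and 1.66 and 1.63% under cynaroside, the same order of groups as for the mitochondrial strands, and its part in the mitochondrial results was not tested.

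**Figure D2:**
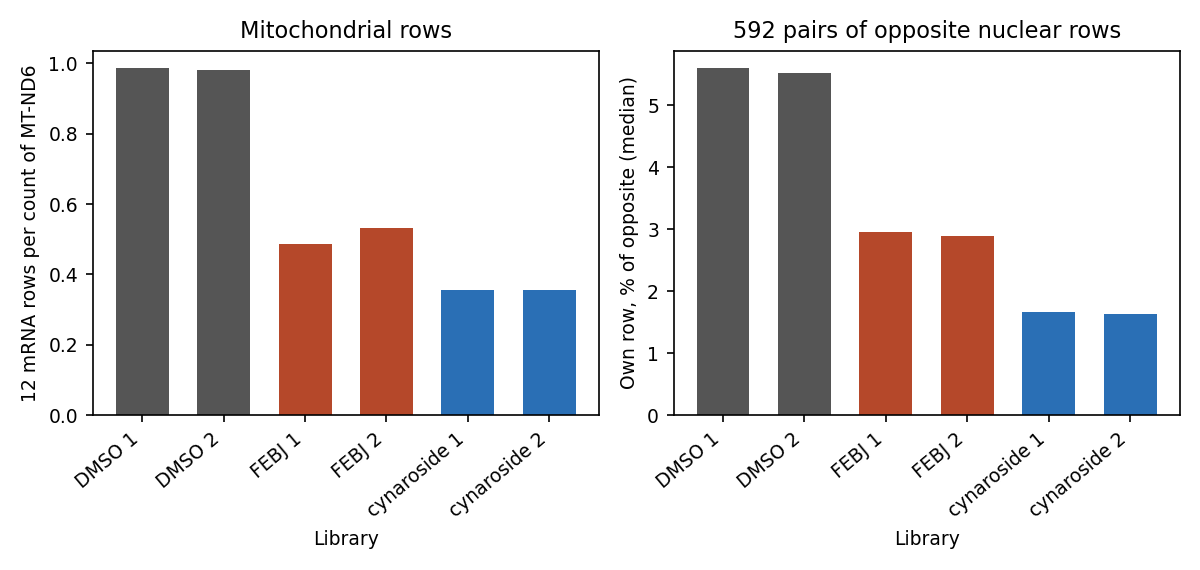
Counts of the 12 mRNA rows on the strand of MT-CO1 per count of MT-ND6 in each library, beside a median over 592 pairs of nuclear rows. That median is the level of a protein-coding gene's own row in percent of the non-coding row opposite to it, which held counts in each library. Both measures were highest in the DMSO libraries, lower under FEBJ and lowest under cynaroside.

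To see whether the rows of the other strand moved beyond the 12 mRNA rows, the libraries were also scaled to the total of these 12 rows, a setting chosen after the data were seen. On that scale MT-ND6 rose by a log2 change of 0.96 ± 0.05 (standard error) under FEBJ (edgeR quasi-likelihood test with Benjamini-Hochberg adjustment, adjusted p = 1.51e-24). It rose by 1.47 ± 0.05 under cynaroside (edgeR, adjusted p = 1.12e-30). MT-TS1 rose by 1.72 ± 0.06 and 0.95 ± 0.06, and MT-TP by 2.46 ± 0.12 and 1.85 ± 0.12, under FEBJ and cynaroside. The rRNA rows, on the strand of the 12, went apart: MT-RNR2 rose by 1.44 ± 0.12 under FEBJ and fell by 2.44 ± 0.14 on the log2 scale under cynaroside. These are changes relative to the 12 mRNA rows, not changes of level.

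The comparison of FEBJ with DMSO asked how the extract changed the level of each mitochondrial row. Levels are in CPM after TMM scaling over all tested rows, a row was called at an adjusted p of at most 0.05, and log2 fold changes are given ± standard error from edgeR's quasi-likelihood test. Of the 21 tested rows, 17 fell, 2 rose and 2 were not called. Over all 12012 tested rows, 24.8% were called lower and 26.0% higher. The 13 mRNA rows all fell, with a median log2 fold change of -2.18, against -0.06 over all tested rows. Among protein-coding rows that no opposite exon overlaps, 1335 of 3879 (34.4%) were called lower and 467 higher, and the median was -1.02.

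Complex IV, cytochrome c oxidase, held the row with the largest fall. MT-CO1 (ENSG00000198804), its catalytic subunit, stood at 926 and 908 CPM in DMSO and at 98.3 and 96.7 CPM under FEBJ, 9.40-fold lower (log2 -3.23 ± 0.10, edgeR adjusted p = 2.87e-21). MT-CO2, the subunit that takes electrons from cytochrome c, stood at 326 and 325 CPM, and under FEBJ at 74.4 and 93.9 CPM (log2 -1.94 ± 0.12). MT-CO3, another core subunit, went from 341 and 373 CPM to 194 and 189 CPM (log2 -0.90 ± 0.09). The groups did not overlap for any of these, and the fall of MT-CO3 was the smallest among the 12 mRNA rows of its strand.

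MT-CYB, the cytochrome b of complex III and the only mitochondrial subunit of that complex, fell next most. It stood at 454 and 442 CPM in DMSO and at 52.1 and 65.2 CPM under FEBJ (log2 -2.92 ± 0.12, edgeR adjusted p = 2.57e-18). The rows of complex V fell too. MT-ATP6, part of the proton channel of the ATP synthase, went from 517 and 534 CPM to 124 and 109 CPM (log2 -2.18 ± 0.10). MT-ATP8 shares 46 bases with MT-ATP6 on the same strand, so reads from the shared stretch cannot be given to 1 of them. It was the lowest mRNA row at 43.5 and 37.7 CPM, and stood at 7.96 and 3.40 CPM under FEBJ (log2 -2.88 ± 0.40).

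The 7 rows of complex I, NADH dehydrogenase, fell by unequal amounts. MT-ND2 fell most, from 303 and 306 CPM to 50.9 and 55.3 CPM (log2 -2.51 ± 0.13). MT-ND4, from 1164 and 1161 CPM to 215 and 256 CPM, and MT-ND1, from 194 and 200 CPM to 41.8 and 40.3 CPM, had log2 fold changes of -2.30 ± 0.08 and -2.26 ± 0.16. All 3 encode membrane subunits of the complex. MT-ND5 went from 1421 and 1436 CPM to 567 and 605 CPM (log2 -1.29 ± 0.07). MT-ND3, at 103 and 123 CPM in DMSO and 60.5 and 54.5 CPM under FEBJ, changed by -0.99 ± 0.15. MT-ND4L shares 7 bases with MT-ND4. It went from 64.3 and 69.0 CPM to 27.5 and 38.9 CPM, a change of -0.99 ± 0.20.

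MT-ND6 itself stood at 5933 and 6019 CPM in DMSO and at 3114 and 3023 CPM under FEBJ, 1.95-fold lower (log2 -0.96 ± 0.05, edgeR adjusted p = 4.68e-16). Its neighbour on the opposite strand, MT-ND5, fell further. In raw counts MT-ND6 held 6.41 and 6.63 counts per count of MT-CO1 in DMSO, and 31.7 and 31.3 under FEBJ. The 4 smallest falls among the 12 rows were those of MT-CO3, MT-ND3, MT-ND4L and MT-ND5, which lie in 1 stretch of the genome that MT-ND4 interrupts.

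The rRNA rows fell less than most mRNA rows. MT-RNR2, the RNA of the large ribosomal subunit, stood at 244 and 236 CPM in DMSO and at 159 and 184 CPM under FEBJ (log2 -0.48 ± 0.12, edgeR adjusted p = 0.0016). MT-RNR1, the RNA of the small subunit, went from 33.9 and 43.8 CPM to 17.1 and 23.0 CPM (log2 -0.95 ± 0.33, edgeR adjusted p = 0.0171). Neither pair of groups overlapped, but both calls rested on single libraries. Without FEBJ 1 the edgeR adjusted p was 0.123 for MT-RNR2 and 0.168 for MT-RNR1, and without DMSO 2 it was 0.204 for MT-RNR1.

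The tRNA rows, all on the strand of MT-ND6, did not move together under FEBJ. MT-TY fell from 136 and 154 CPM to 80.0 and 80.3 CPM (log2 -0.86 ± 0.12). MT-TS1, the most abundant tRNA row, stood at 1617 and 1700 CPM in DMSO and at 1442 and 1449 CPM under FEBJ (log2 -0.20 ± 0.06, edgeR adjusted p = 0.0091). That small fall lost its call when any 1 of the 4 libraries was left out, with edgeR adjusted p from 0.103 to 0.282. Beside it, MT-CO1 fell 9.40-fold, so that MT-TS1 went from 1.75 and 1.87 counts per count of MT-CO1 to 14.7 and 15.0.

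The 2 rows that rose under FEBJ were tRNA rows. MT-TP stood at 93.3 and 109 CPM in DMSO and at 132 and 165 CPM under FEBJ (log2 0.55 ± 0.12, edgeR adjusted p = 0.0005). Its edgeR adjusted p was 0.0647 without DMSO 1 and 0.104 without FEBJ 2. MT-TQ stood at 12.4 and 9.97 CPM, and under FEBJ at 21.9 and 36.3 CPM (log2 1.40 ± 0.36, edgeR adjusted p = 0.0020), with an adjusted p of 0.11 without FEBJ 2. MT-TE, the tRNA for glutamate, at 8.84 and 8.02 against 7.96 and 4.25 CPM, was not called. MT-TN, the tRNA for asparagine, was not called either, and its libraries differed most within a group, at 7.56 and 0.284 CPM under FEBJ against 1.06 and 3.16 CPM.

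**Figure D3:**
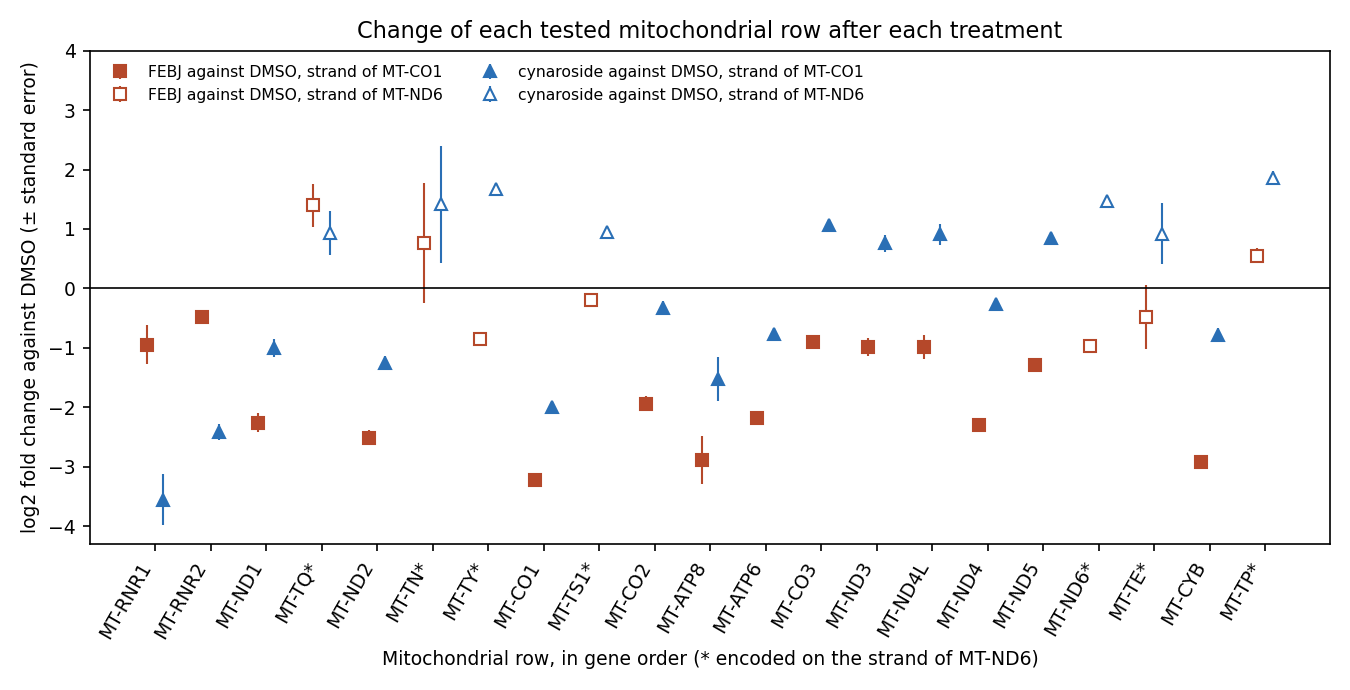
Log2 fold change against DMSO ± standard error (edgeR) of each of the 21 tested rows, in gene order along the mitochondrial genome, under FEBJ (squares) and cynaroside (triangles), with open symbols and an asterisk for rows on the strand of MT-ND6. All 13 mRNA rows lay below 0 under FEBJ, while under cynaroside 5 of them lay above 0, among them MT-ND6 at 1.47.

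The comparison of cynaroside with DMSO shares its DMSO libraries with the comparison above. Of the 21 tested rows, 9 rose, 10 fell and 2 were not called, against 24.3% of all tested rows called higher and 21.1% lower. On the strand of MT-ND6, 5 of the 7 tested rows rose and none fell, and the other 2, MT-TN and MT-TE, were not called. On the strand of MT-CO1, 4 mRNA rows rose, and 8 mRNA rows and both rRNA rows fell. The median over the 13 mRNA rows was -0.33, against 0.02 over all tested rows and -1.42 over protein-coding rows with no opposite exon, of which 8.38% were called higher and 39.1% lower.

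MT-ND6 rose 2.77-fold under cynaroside, from 5933 and 6019 CPM to 15807 and 17328 CPM (log2 1.47 ± 0.05, edgeR adjusted p = 4.57e-19). MT-TP rose from 93.3 and 109 CPM to 363 and 374 CPM (log2 1.86 ± 0.12), and MT-TY from 136 and 154 CPM to 444 and 475 CPM (log2 1.67 ± 0.11). MT-TS1, already high in DMSO, rose to 3048 and 3388 CPM (log2 0.96 ± 0.06). In each of these rows both cynaroside libraries stood above both DMSO libraries. MT-TQ, at 19.2 and 22.7 CPM, passed narrowly (log2 0.93 ± 0.37, edgeR adjusted p = 0.0428). Its call was lost under DESeq2 (adjusted p = 0.12) and with the replicate number as a block (edgeR adjusted p = 0.0521), among other settings.

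The mRNA rows of the MT-CO1 strand divided by their place in the genome. The 6 rows from MT-ND1 to MT-ATP6 in gene order all fell. MT-CO1 went from 926 and 908 CPM to 222 and 235 CPM, 3.99-fold lower (log2 -1.998 ± 0.09, edgeR adjusted p = 5.16e-16). MT-ND2, at 129 and 127 CPM under cynaroside, and MT-ND1, at 82.3 and 109 CPM, changed by -1.25 ± 0.12 and -1.01 ± 0.15. MT-ATP8 at 15.8 and 12.9 CPM and MT-ATP6 at 309 and 309 CPM changed by -1.53 ± 0.37 and -0.77 ± 0.09. MT-CO2, at 241 and 274 CPM, changed least of these 6 (log2 -0.33 ± 0.11, edgeR adjusted p = 0.0174), and its call was lost without DMSO 1, DMSO 2 or cynaroside 1 (edgeR adjusted p from 0.109 to 0.135).

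Past MT-ATP6, 4 of the 6 mRNA rows rose. MT-CO3, which adjoins MT-ATP6, rose from 341 and 373 CPM to 721 and 781 CPM (log2 1.07 ± 0.09, edgeR adjusted p = 8.13e-11). MT-ND3 rose to 191 and 193 CPM and MT-ND4L to 109 and 138 CPM (log2 0.76 ± 0.14 and 0.91 ± 0.18). With all counts of a table as the library size, these 2 rows were not called (0.28, edgeR adjusted p = 0.0815, and 0.43, edgeR adjusted p = 0.0511). MT-ND5 rose from 1421 and 1436 CPM to 2429 and 2710 CPM (log2 0.85 ± 0.07).

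The other 2 rows past MT-ATP6 fell. MT-CYB went from 454 and 442 CPM to 252 and 268 CPM (log2 -0.78 ± 0.10). MT-ND4 went from 1164 and 1161 CPM to 928 and 1002 CPM (log2 -0.27 ± 0.08, edgeR adjusted p = 0.0072). Without DMSO 1, DMSO 2 or FEBJ 1 the call of MT-ND4 was lost (edgeR adjusted p of 0.15, 0.101 and 0.0534). MT-CO3, MT-ND3, MT-ND4L and MT-ND5, which rose here, are the 4 rows named above for their small falls under FEBJ, and the 2 comparisons share their controls. The pattern along the genome was seen in the data and was not tested.

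The rRNA rows had the largest falls under cynaroside. MT-RNR1 went from 33.9 and 43.8 CPM to 2.74 and 3.53 CPM, 11.8-fold lower (log2 -3.56 ± 0.42, edgeR adjusted p = 9.83e-08). MT-RNR2 went from 244 and 236 CPM to 43.9 and 45.4 CPM, 5.34-fold lower (log2 -2.42 ± 0.14, edgeR adjusted p = 1.17e-13). In all libraries MT-RNR2 held more counts than MT-RNR1, by a factor of 5.38 to 7.19 in DMSO, 8.02 to 9.30 under FEBJ and 12.9 to 16 under cynaroside. MT-RNR1 held only 4 and 14 counts under cynaroside, so the size of its fall and the last of these ratios rest on few reads. In cynaroside 1, its 2.74 CPM stood near the 2.06 CPM that 3 counts were worth. The 2 rRNA rows held 1.98% of the mitochondrial counts in DMSO, 2.93% under FEBJ and 0.180% under cynaroside.

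**Figure D4:**
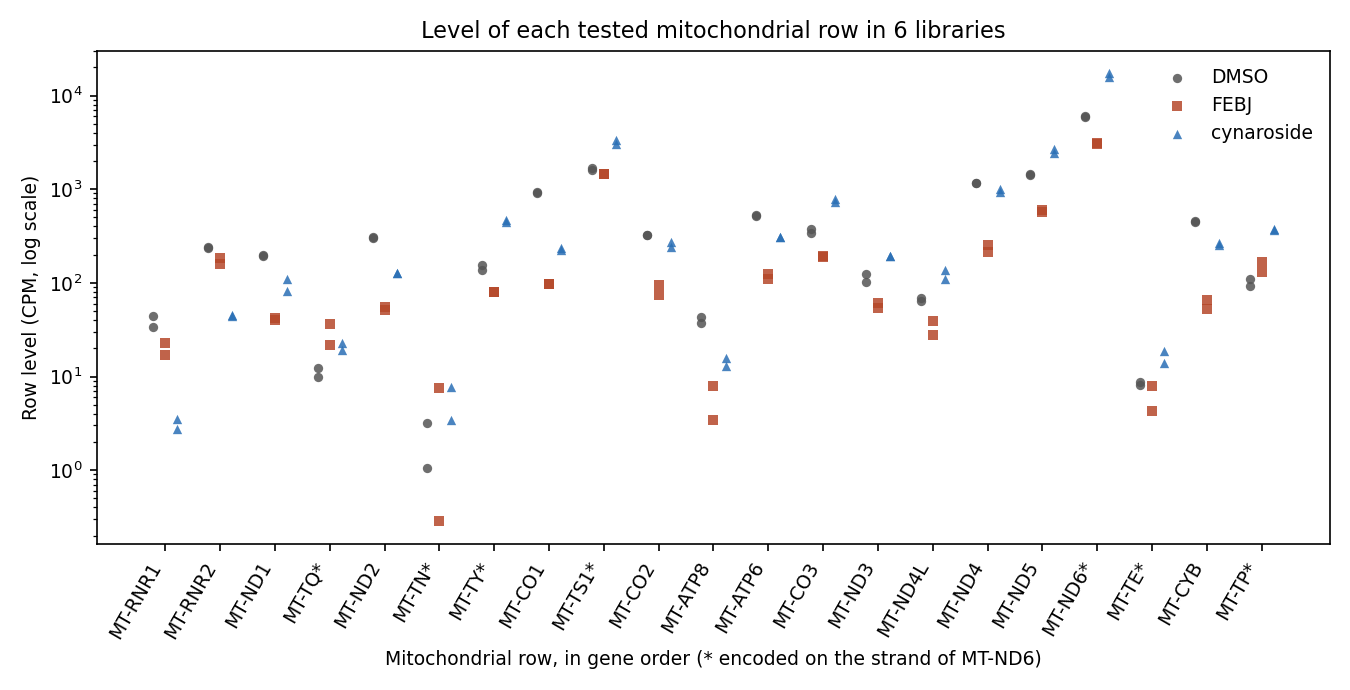
Level of each tested mitochondrial row in CPM on a log axis, 1 point per library, with rows in gene order and colours for the groups. The 2 libraries of a group lie close together for most rows, the FEBJ points are lowest for the mRNA rows, and the cynaroside points are lowest for MT-RNR1 and MT-RNR2.

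Divided by gene length, the order of the mRNA rows changed with treatment. Levels here are CPM per kilobase, as means of 2 libraries. MT-ND6 led in each group, at 11383 ± 115, 5845 ± 123 and 31557 ± 2048 (SD, n = 2) in DMSO, FEBJ and cynaroside. In DMSO it was followed by MT-ND4 at 844, MT-ND5 at 788, MT-ATP6 at 771 and MT-CO1 at 594. Under FEBJ and under cynaroside alike, MT-ND5 came next, at 323 and 1418, and then MT-CO3, at 244 and 958. MT-CO1 was 5th of the 13 in DMSO at 594, 9th under FEBJ at 63.2 and 10th under cynaroside at 148. MT-ATP8 was last in all 3 groups, at 196, 27.4 and 69.2.

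Some neighbours in these orders were not separated by their libraries. In DMSO these were MT-CO2 with MT-CO3 and MT-ND1 with MT-ATP8. Under FEBJ they were MT-ATP6 with MT-ND4, MT-ND4 with MT-ND3, MT-CO2 with MT-ND4L, and MT-CYB with MT-ND2. Under cynaroside they were MT-ATP6 with MT-ND4L and MT-ND4L with MT-CO2. Among shorter genes, MT-TS1 stood at 24034, 20944 and 46640 CPM per kilobase in DMSO, FEBJ and cynaroside, above MT-ND6 in each group. MT-RNR2, at 154, 110 and 28.6, and MT-RNR1, at 40.7, 21.0 and 3.29, stood below every mRNA row in DMSO and cynaroside. A level per kilobase of a gene as short as a tRNA depends on how reads that reach past its ends were counted.

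Set directly against cynaroside, FEBJ left the mRNA rows lower and the rRNA rows higher. The question was whether the extract and the compound differ in the mitochondrial rows, and since no dose was given the comparison is not one of matched doses. Of 21 tested rows, 17 were lower under FEBJ, 2 were higher and 2 were not called, against 20.4% of all tested rows called lower and 21.5% higher. All 13 mRNA rows were lower under FEBJ, with a median log2 difference of -1.75, against 0.12 over all tested rows and 0.32 over protein-coding rows with no opposite exon, of which 425 of 3879 were called lower and 631 higher.

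The largest mRNA difference was in MT-ND6, 3114 and 3023 CPM under FEBJ against 15807 and 17328 CPM under cynaroside, 5.40-fold lower (log2 -2.43 ± 0.05, edgeR adjusted p = 8.17e-25). The smallest was in MT-CO1, 98.3 and 96.7 CPM against 222 and 235 CPM (log2 -1.24 ± 0.10). Between these lay MT-CYB at -2.14 ± 0.12, MT-ND5 at -2.13 ± 0.07 and MT-ND4 at -2.03 ± 0.08. The difference in MT-CO3 was -1.97 ± 0.09, and in MT-CO2 -1.61 ± 0.12. MT-ATP8 (-1.36 ± 0.44) lost its call without FEBJ 2 (edgeR adjusted p = 0.222) and with all table counts as library size (edgeR adjusted p = 0.0657).

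Both rRNA rows were higher under FEBJ than under cynaroside. The difference was 2.61 ± 0.44 for MT-RNR1, at 17.1 and 23.0 CPM against 2.74 and 3.53 CPM, and 1.94 ± 0.14 for MT-RNR2, at 159 and 184 CPM against 43.9 and 45.4 CPM. Of the tRNA rows, MT-TY showed the largest difference, 80.0 and 80.3 CPM against 444 and 475 CPM (log2 -2.52 ± 0.11). MT-TP and MT-TS1 were lower under FEBJ by -1.30 ± 0.12 and -1.16 ± 0.06. MT-TE (-1.41 ± 0.53, edgeR adjusted p = 0.035) was called, but not without FEBJ 2 (adjusted p = 0.248) or cynaroside 1 (adjusted p = 0.106), nor under some other scalings and filters (adjusted p from 0.0671 to 0.11). MT-TQ (0.47 ± 0.35) and MT-TN (-0.65 ± 0.96) were not called, and their groups overlapped.

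Nuclear genes that serve the mitochondrial genome were read from 8 lists. In many of these genes a row shares exon bases with a gene on the opposite strand, so its level may include reads of that gene. Protein-coding rows with no opposite exon had median log2 fold changes of -1.02 under FEBJ and -1.42 under cynaroside. The part of strand in this was not tested. A fall of such a row was thus not shown to be a fall of its mRNA. The counts of these lists stand beside 26.0% of all tested rows called higher and 24.8% lower under FEBJ, and 24.3% and 21.1% under cynaroside. Of the 6 tested of 10 genes for mitochondrial transcription, 2 rose and 1 fell under FEBJ (median log2 fold change 0.66), and 1 rose and 1 fell under cynaroside (-0.33). TEFM, the factor that lets the mitochondrial RNA polymerase elongate, stood at 89.0 ± 3.11 CPM in DMSO and 292 ± 15.1 CPM under FEBJ (log2 1.72 ± 0.13), and shares 542 exon bases with an opposite gene. MTERF2, of a family of transcription factors, stood at 34.5 ± 5.60 CPM under cynaroside against 4.99 ± 2.56 (log2 2.72 ± 0.53), and shares 422. TFAM, which packs mitochondrial DNA and starts its transcription, has no opposite exon, and stood at 7.71 ± 0.591 CPM in DMSO, 1.48 ± 1.29 under FEBJ and 0.252 ± 0.356 under cynaroside. Both falls of TFAM were called (edgeR adjusted p = 0.0393 and 0.00477), but the second was lost without DMSO 2. The first was lost without DMSO 1, DMSO 2 or FEBJ 2, with no filter on low counts (edgeR adjusted p = 0.0579), and with the replicate number as a block (-2.49, edgeR adjusted p = 0.0743). POLRMT, the polymerase, was not called in either comparison (0.38 ± 0.56 and -0.27 ± 0.60).

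Of 17 tested of 32 genes that process and degrade mitochondrial RNA, 6 rose and 2 fell under FEBJ (median 0.00), and 3 rose and 4 fell under cynaroside (-0.58). The shares of all tested rows called higher and lower were 26.0% and 24.8%, and 24.3% and 21.1%, and the counts under cynaroside are near them. TRNT1, which adds CCA ends to tRNAs, rose under FEBJ and under cynaroside (1.47 ± 0.09 and 0.51 ± 0.09). SLIRP, partner of LRPPRC in keeping mitochondrial mRNAs stable, also rose under both (1.47 ± 0.13 and 0.62 ± 0.14). TRNT1 and SLIRP share 595 and 118 exon bases with an opposite gene, while LRPPRC, HSD17B10 and ELAC2 have no opposite exon. Under cynaroside the rise of TRNT1 was 0.15 with gene-row totals and 0.030 with all table counts as library size, and that of SLIRP 0.26 and 0.14, and none of these was called; the rise of SLIRP was also lost without cynaroside 2. LRPPRC stood at 10.7 ± 5.85 CPM in DMSO, 0.199 ± 0.281 CPM under FEBJ and 1.26 ± 1.78 CPM under cynaroside. Both falls of LRPPRC were called (edgeR adjusted p = 0.000454 and 0.0208), the second not without DMSO 1 or cynaroside 1. HSD17B10, a subunit of the enzyme that cuts tRNA 5′ ends, and ELAC2, which cuts their 3′ ends, fell under cynaroside (-2.64 ± 0.61 and -3.09 ± 0.73) and were not called under FEBJ (-1.13 ± 0.53 and -1.19 ± 0.61).

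Of 11 tested of 15 genes that copy mitochondrial DNA, 3 rose and 2 fell under FEBJ (median 0.14), and 2 rose and 3 fell under cynaroside (0.22). Both pairs of counts are near the shares called over all tested rows, 26.0% higher and 24.8% lower, and 24.3% and 21.1%. PRIMPOL, a primase, rose in both (2.51 ± 0.16 and 0.97 ± 0.17), and so did POLG, the polymerase (0.92 ± 0.08 and 0.45 ± 0.08). The rows of PRIMPOL, POLG and SSBP1 share 346, 458 and 26 exon bases with an opposite gene. With all counts of a table as the library size, the change of POLG under cynaroside turned to -0.022, and with gene-row totals it was 0.10 and not called. SSBP1, which coats single-stranded DNA, fell in both (-2.25 ± 0.61 and -3.34 ± 0.71), the first call being lost without DMSO 2. Of 6 tested of 10 regulators of biogenesis, 2 rose and 1 fell under FEBJ (median 0.18), and 1 rose under cynaroside (0.11).

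The nuclear subunits of the complexes are set beside protein-coding rows with no opposite exon. Of those rows, 34.4% were called lower under FEBJ and 39.1% under cynaroside. Their medians were -1.02 and -1.42, with 467 of 3879 called higher under FEBJ and 8.38% under cynaroside. The lists below also hold rows with an opposite exon, so that background matches them only in part. Genes with none were 10 of 21 tested for complex I, 3 of 6 for III, 5 of 6 for IV and 7 of 14 for V. The medians of complex I, and of complex V under cynaroside, lay above the background medians, and the others lay below. Of 21 tested of 37 for complex I, 4 rose and 3 fell under FEBJ (median 0.16), and 4 rose and 6 fell under cynaroside (-0.32). NDUFB11 rose (1.41 ± 0.13 and 0.57 ± 0.14) and NDUFS5 fell (-2.23 ± 0.53 and -3.38 ± 0.61), and the rise of NDUFB11 under cynaroside was lost without DMSO 1 (0.37), with gene-row totals (0.21) and with all table counts as library size (0.092). Of 6 tested of 9 for complex III, 2 fell and 4 were not called under FEBJ (median -1.27), and 1 rose and 3 fell under cynaroside (-2.01). CYC1, its cytochrome c1 subunit, rose under cynaroside by 1.29 ± 0.30. Of 6 tested of 11 for complex IV, 2 fell and 4 were not called under FEBJ (median -1.68), and 5 fell under cynaroside (-3.00, with 3 genes at 0 in a group set to their bound). COX5A, at 5.57 ± 0.377 CPM in DMSO, had 0 counts under cynaroside and was at least 10.1-fold lower, with the floor of 3 counts over the group. Of 14 tested of 18 for complex V, 2 rose and 8 fell under FEBJ (median -1.95), and 1 rose and 8 fell under cynaroside (-1.13). ATP5F1B, the catalytic beta subunit, went from 38.9 ± 5.91 CPM to 6.25 ± 2.42 and 3.89 ± 1.62 CPM (-2.66 ± 0.42 and -3.18 ± 0.45). Of the subunits named here, NDUFB11 shares 636 exon bases with an opposite gene, and NDUFS5, CYC1, COX5A and ATP5F1B have no opposite exon.

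**Figure D5:**
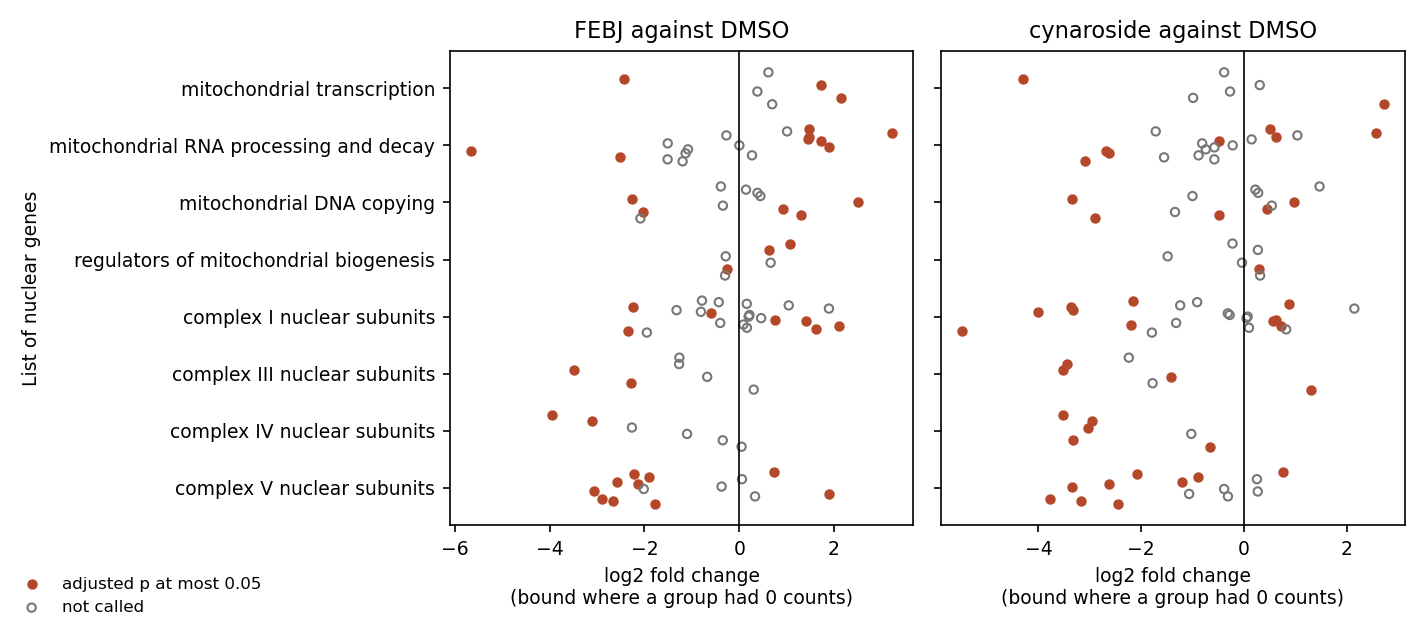
Log2 fold change against DMSO of each tested nuclear gene in the 8 lists, under FEBJ and under cynaroside, with filled points for genes called at an adjusted p of at most 0.05 and bounds for genes at 0 in a group. The lists of transcription, RNA processing and DNA copying hold called genes on both sides of 0, and most called genes of complexes III, IV and V lie below it.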

How the data were processed

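Counts in 6 libraries of LX-2 cells, 2 per group, were deposited by the authors as raw counts per gene, with 5 summary rows per table that entered neither library sizes nor tests (reads in no feature made up 87.4 to 88.3% of a table). Per the submitters' processing notes, CASAVA 1.7, HISAT2, HTSeq 0.12.4 and DESeq2 1.38.0 were used with hg19; strand setting, kit and annotation release are not given in the sources used here. Symbols matched 62700 of the 62754 identifiers. GENCODE release 29 (GRCh38), which held 58261 of them, gave lengths, strands, gene order and sequences. The builds were not reconciled, so no positions are given.

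All gene rows were fitted with edgeR 4.0.16 in R 4.3.3: filterByExpr, TMM, 3 group means over 6 libraries, the quasi-likelihood test with 3 residual degrees of freedom, and Benjamini-Hochberg adjustment over 12012 rows at a threshold of 0.05. The quasi-likelihood test moderates the spread of each row by that of the other rows. A p-value thus rests on more than the 3 degrees of freedom of its own row. CPM are counts over the TMM library size times 1e6. The mean chi-square per row between the libraries of a group was 3.03 to 3.19, above sampling noise, so each library was counted as its own. All mRNA and rRNA rows were named, tRNA rows with at least 10 counts in a library, and up to 2 rising and 2 falling nuclear genes per list and comparison; POLRMT, SLIRP under FEBJ, LRPPRC under cynaroside, and HSD17B10 and ELAC2 under FEBJ were named beyond that rule after their values were seen. The members and lists were chosen with earlier results of these data known. Alternatives were other scalings, filters, prior count, DESeq2 1.42.0, a replicate block, each library left out and only the 4 libraries compared; the fit was tested on simulated data.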

Additional observations from a re-analysis of the deposited data

How the results depend on the processing

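For the 21 tested rows in the 3 comparisons, no called change reversed under any alternative other than the scaling to the 12 mRNA rows. On that scale the called falls of MT-ND6, MT-TY, MT-TS1, MT-RNR1 and MT-RNR2 under FEBJ became rises of 0.96, 1.06, 1.72, 0.96 and 1.44. The called differences of MT-TS1 and MT-TP between FEBJ and cynaroside also turned, to 0.76 and 0.61. That of MT-TE changed sign to 0.51 ± 0.57 and was no longer called (edgeR adjusted p = 0.417). Among the other alternatives, the uncalled MT-TN reversed. Under FEBJ against DMSO it was -2.77 without FEBJ 1 (range -2.77 to 1.77 with a library left out). For FEBJ against cynaroside it was 0.33 without FEBJ 2 and 0.14 without cynaroside 2. It was called there without FEBJ 1 (-4.20, edgeR adjusted p = 0.0437). The rows higher under FEBJ numbered 2, and 0 to 2 when a library was left out: 1 without DMSO replicate 1 and 0 without FEBJ replicate 2. The other counts of mitochondrial calls with a library left out were 14 to 17 lower for FEBJ against DMSO, 8 to 9 higher and 8 to 10 lower for cynaroside, and 2 higher and 15 to 18 lower for FEBJ against cynaroside. In the other settings the count of rows higher under cynaroside was 6 to 9, and lower 10. All rows called numbered 4621 to 6957, 3643 to 5478 and 4004 to 4854 with a library left out in these comparisons. Leaving out a library, the mitochondrial share ranged from 1.55 to 1.57% in DMSO, 0.651 to 0.658% under FEBJ and 2.31 to 2.34% under cynaroside. The share of MT-ND6 in the mRNA rows ranged from 50.3 to 50.4%, 65.3 to 67.3% and 73.7 to 73.8%, and that of its strand from 56.0 to 56.4%, 72.4 to 74.0% and 77.6 to 77.7%. Over all table counts the mitochondrial share was 0.0938, 0.0401 and 0.128%, and without the 2 rRNA rows the share of the MT-ND6 strand was 57.3, 75.4 and 77.8%.

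Scaling moved the median of all rows from -0.06 to as low as -0.21 under FEBJ, and from 0.02 to -0.46 under cynaroside. With all table counts as library size, the calls under cynaroside were 1397 higher and 3904 lower, against 2917 and 2537, and those for FEBJ against cynaroside 3609 higher and 1788 lower, against 2579 and 2455. The replicate numbers did not pair the libraries: deviations of same-numbered libraries correlated at -0.0123 to 0.00148. With the replicate block the mitochondrial counts were 2 higher and 17 lower under FEBJ, 8 and 10 under cynaroside, and 2 and 17 between them, and MT-TQ under cynaroside (0.91, edgeR adjusted p = 0.0521) was the only mitochondrial call lost. Over all 12012 tested rows the block gave 2986 higher and 2776 lower under FEBJ, 2800 and 2310 under cynaroside, and 2422 and 2379 between them. Among the nuclear genes named, the block ended the call of TFAM under FEBJ (-2.49, edgeR adjusted p = 0.0743). Of 49 results for nuclear genes eligible to be named, 25 lost their call under at least 1 alternative and 2 reversed, both under cynaroside: POLG at -0.022 with all table counts as library size, and GABPA at -0.056 with gene-row totals and -0.18 with all table counts. The causes were not tested. Low counts left 16 tRNA rows without a test. Of these, 10 held 0 counts in all libraries, all on the strand of MT-CO1, and the part of depth in this was not tested.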

Other observations

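Copies of mitochondrial genes inserted in the nuclear genome were read separately, since their sequences resemble the mitochondrial genes. Reads that match both equally well are in no gene row. Of 404 such rows, 40 held a count and 1 held more than 20 counts in a library. That row was MTATP6P1, a pseudogene copy of MT-ATP6, with 70.3 and 62.7 CPM in DMSO, 24.3 and 24.1 CPM under FEBJ, and 74.8 and 71.1 CPM under cynaroside. It fell under FEBJ (log2 -1.46 ± 0.21, edgeR adjusted p = 1.69e-06) and was not called under cynaroside (0.13 ± 0.20, edgeR adjusted p = 0.612). MT-ATP6 itself changed by -2.18 ± 0.10 and -0.77 ± 0.09. The difference between FEBJ and cynaroside was -1.59 ± 0.22 in the copy and -1.41 ± 0.10 in MT-ATP6.

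The libraries of a group also agreed less closely in the mitochondrial rows under FEBJ than the libraries of the other groups did. The mean chi-square per row with at least 10 counts, against a split by library size, was 4.54 over the mitochondrial rows under FEBJ, and 1.60 and 1.53 in DMSO and cynaroside. Over all rows it was 3.17, 3.19 and 3.03 in DMSO, FEBJ and cynaroside.

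Reads that matched more than 1 place made up 2.79 and 2.79% of a table in DMSO, 2.93 and 3.02% under FEBJ, and 3.61 and 3.64% under cynaroside, and such reads are in no gene row.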
